A study of Mus musculus with 8 samples.

Results

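The 10 genes described here are genes of decidualization in the mouse uterus. They are the decidual prolactins Prl8a2 and Prl3c1, the prolactin receptor Prlr, the ligands Bmp2, Bmp8a and Wnt4, the transcription factors Hoxa10, Hoxa11 and Cebpb, and the gap junction protein gene Gja1. They were chosen by name from the biology of the decidua, with earlier results of these data known. Their symbols were matched to Ensembl IDs through the GENCODE mouse M21 annotation. All 10 were found among the 49585 genes of the count table.

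Bulk RNA-seq was made from the entire uterus, conceptuses included, of pregnant females at embryonic day 8 (E8). Every female was 8 weeks old, carried the Foxp3DTR allele and had been mated with a BALB/c male, an allogeneic cross. The allele places a diphtheria toxin receptor under the Foxp3 locus, so that diphtheria toxin (DT) acts on cells that express Foxp3, the defining transcription factor of regulatory T cells. Injections into the peritoneum, at E1, E3, E5 and E7, gave the DT group 1 µg of toxin each time and the control group PBS. The labels state that the toxin removed 85% of regulatory T cells. The DT group has 4 libraries, numbered 1, 3, 4 and 5, and the PBS group 4, numbered 1, 2, 4 and 6. The labels do not say outright that each library is 1 female, so p-values measure the spread between these libraries. No group without the allele, and no syngeneic cross, was analysed here.

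Decidualization is the change of uterine stromal fibroblasts into large secretory decidual cells around the implanting embryo, under progesterone. In the mouse, BMP2 made by stromal cells acts upstream of WNT4, and HOXA10, HOXA11 and C/EBPβ are needed for stromal cells to respond. Decidual cells couple through connexin 43 gap junctions, and once differentiated they secrete hormones of the expanded prolactin family, while trophoblast secretes other members of the same family.

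Promoter windows from RefSeq (assembly GRCm38.p6), running from 250 bases before to 50 bases after an annotated start, were found for 8 of the 10 genes, with 12 windows in all. Prl8a2 and Bmp2 had none in the table used. The windows were searched on both strands for the letters TTCNNNGAA (the STAT motif), TTGCNNAA (C/EBP), TTTATNG (posterior Hox proteins) and ACANNNTGT (the core of a progesterone receptor element). Shown first are Prl3c1 and the receptor gene Prlr, whose windows hold the STAT letters, because the prolactin receptor signals through STAT5. The Prlr window belongs to a start 46668 bases inside the gene. Bmp8a and Gja1 follow because their levels varied together between libraries. All are written 5′ to 3′ on the gene's strand, and capitals mark the STAT letters.
Prl3c1, chr13:27196410-27196709, plus strand: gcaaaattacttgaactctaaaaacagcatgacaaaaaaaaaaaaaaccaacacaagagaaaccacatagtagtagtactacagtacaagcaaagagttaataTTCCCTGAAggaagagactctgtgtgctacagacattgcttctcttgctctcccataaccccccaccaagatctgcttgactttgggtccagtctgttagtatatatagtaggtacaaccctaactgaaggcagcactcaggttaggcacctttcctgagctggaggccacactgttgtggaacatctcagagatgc
Prlr, chr15:10223656-10223955, plus strand: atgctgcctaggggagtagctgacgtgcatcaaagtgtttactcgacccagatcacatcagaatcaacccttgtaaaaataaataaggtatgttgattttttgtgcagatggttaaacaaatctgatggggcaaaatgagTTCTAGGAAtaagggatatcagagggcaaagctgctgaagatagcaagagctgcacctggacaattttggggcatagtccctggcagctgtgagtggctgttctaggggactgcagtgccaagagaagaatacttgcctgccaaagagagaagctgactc
Bmp8a, chr4:123343203-123343502, minus strand: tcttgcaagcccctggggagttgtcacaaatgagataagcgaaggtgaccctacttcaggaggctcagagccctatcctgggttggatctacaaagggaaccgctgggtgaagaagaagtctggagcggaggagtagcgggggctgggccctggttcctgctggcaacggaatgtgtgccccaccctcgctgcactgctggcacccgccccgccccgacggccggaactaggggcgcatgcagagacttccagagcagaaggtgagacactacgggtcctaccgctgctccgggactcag
Gja1, chr10:56377050-56377349, plus strand: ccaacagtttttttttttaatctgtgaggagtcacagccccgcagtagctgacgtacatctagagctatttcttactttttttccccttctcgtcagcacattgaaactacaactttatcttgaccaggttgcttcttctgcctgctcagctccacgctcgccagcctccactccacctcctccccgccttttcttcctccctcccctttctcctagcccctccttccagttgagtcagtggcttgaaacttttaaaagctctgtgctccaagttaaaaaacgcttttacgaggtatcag

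The STAT match TTCCCTGAA began 147 bases before the Prl3c1 start, and TTCTAGGAA began 110 bases before the Prlr start shown. STAT letters were present in 2 of the 12 windows and in 8.30% of the 32851 promoters of the table. C/EBP letters were present in 3 of the 12 windows and in 10.8% of all promoters. They were TTGCACAA, 6 bases before a Hoxa10 start that lies 5915 bases inside the gene, and 2 matches at other Prlr starts. TTGCGGAA began 221 bases before the Prlr start at the beginning of the gene. TTGCAAAA began 121 bases before a Prlr start 116413 bases inside the gene. The window at the beginning of Hoxa10 held none of the 4 motifs. The posterior Hox letters, held by 10.9% of all promoters, and the progesterone receptor core, held by 6.85%, were in 0 of the 12 windows. Bmp8a and Gja1 held none of the 4 motifs. A match of letters is a description and not a binding site.

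Total counts ran from 94794512 to 109847604 per library. Foxp3 measured 5.10 to 5.72 CPM (counts scaled to library totals adjusted by TMM factors) in the DT libraries and 4.36 to 5.44 CPM in the PBS libraries, so the targeted cells' gene was not lower where toxin was given, and libraries are named here by their labels. PBS replicates 1 and 2 stood apart in markers of the conceptus. A conceptus score, the mean over 32 trophoblast, yolk sac and primitive erythroid genes of log2 CPM centred on the 8-library mean, was 1.93 and 3.05 in those libraries. It was -1.53 and -0.33 in PBS replicates 4 and 6, and -1.99, 0.04, -0.98 and -0.19 in DT replicates 1, 3, 4 and 5. Every library name carries a suffix that the labels do not explain. In the PBS group replicates 1 and 2 share one, and replicates 4 and 6 another. In the DT group replicates 1 and 3 share one, and replicates 4 and 5 another. No suffix occurs in both groups. DT replicate 1 had the lowest conceptus score, with PBS replicate 4 next, and did not stand apart on it. It had the highest summed level of 13 uterine epithelium markers, 1035 CPM. The other DT libraries had 297 to 461 CPM and the PBS libraries 177 to 434 CPM. Results that rest on these libraries are given with and without them.

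None of the 10 genes passed the test between the groups. All 10 passed the filter on low counts, and 0 of 10 were called at an adjusted p under 0.05 by edgeR's quasi-likelihood test, DESeq2 or limma voom. The background was 0.326% of the 22693 genes tested for edgeR (73 higher and 1 lower in the DT libraries), 1.47% for DESeq2 and 0.229% for limma voom. At an unadjusted p under 0.05, edgeR's test called 0 of 10, against 8.7% of all genes (4.72% higher and 3.98% lower, or 1072 and 903 genes; 1229 and 492 when scaled by library totals alone). The DT and PBS values overlapped for all 10, while the groups of 5.06% of all genes did not overlap. The median log2 fold change (DT minus PBS) of the 10 was -0.05, with 5 above and 5 below 0, beside 0.01 over all genes tested. At these background shares a set of 10 genes would hold few calls in any case. The same shares are the background for the counts of the gene lists below. In whole tissue, fewer cells of a type and less RNA per cell cannot be told apart.

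**Figure D1:**
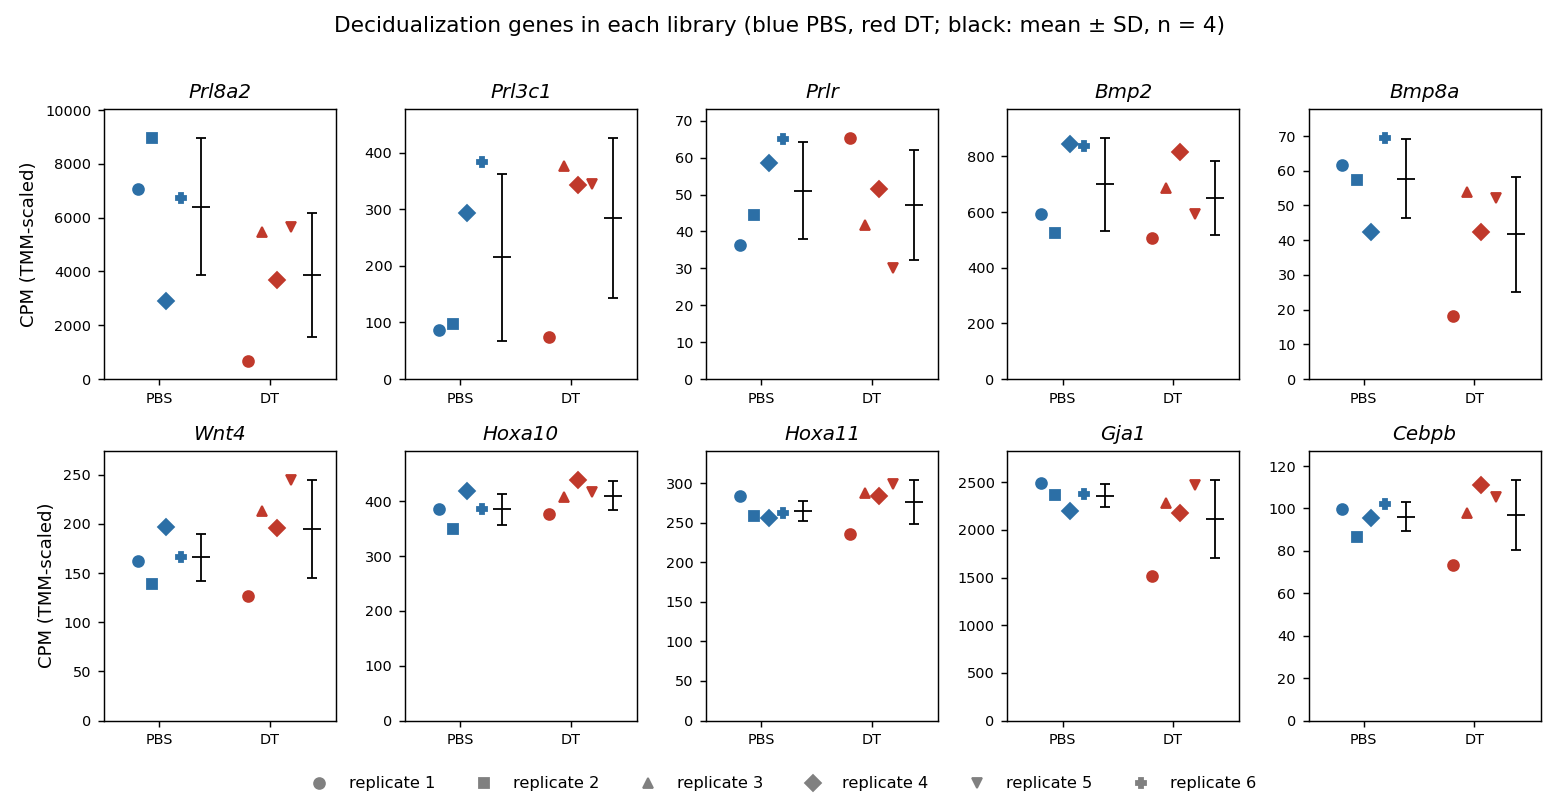
CPM (linear axes from 0) of the 10 genes in each library, PBS in blue and DT in red, with marker shapes for replicate numbers and black bars for the mean ± SD (n = 4 each). The groups overlap in every panel, and the lowest point is DT replicate 1 for 8 genes, among them Prl8a2 at 687 CPM and Gja1 at 1519.5 CPM.

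Prl8a2, which encodes decidual prolactin-related protein, was by far the most abundant of the 10 and varied most. It measured 687, 5479, 3682 and 5666 CPM in DT replicates 1, 3, 4 and 5, and 7066, 8959.7, 2893 and 6719.9 CPM in PBS replicates 1, 2, 4 and 6. The 3 highest libraries were PBS and the lowest was DT replicate 1, but PBS replicate 4 lay below 3 of the 4 DT libraries. As a share of all counts the gene took 0.0804% of DT replicate 1 and 0.811% of PBS replicate 2. Means were 3878 ± 2308 and 6409.8 ± 2543 CPM (SD; n = 4 each), and the log2 fold change was -0.72 ± 0.60 (SE; 95% interval -2.10 to 0.65; edgeR quasi-likelihood, Benjamini-Hochberg adjusted p = 0.631). That interval spans 0.234 to 1.57 as a fold. Without DT replicate 1 the difference was -0.37 ± 0.36, without PBS replicates 1 and 2 -0.32 ± 0.78, and without all 3 it was 0.04 ± 0.38. Leaving out PBS replicate 4 gave -0.97 ± 0.60, further from 0. With the conceptus score as a covariate it was -0.15 ± 0.50.

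Prl3c1, a second prolactin-family hormone of the decidua (prolactin-like protein J), had a different pattern. Its CPM values were 74.6, 377, 343 and 345 in DT replicates 1, 3, 4 and 5, and 87.2, 96.7, 294 and 385 in PBS replicates 1, 2, 4 and 6. They fell into 2 sets with nothing between 96.7 and 294 CPM, and the low set joined DT replicate 1 to PBS replicates 1 and 2, the libraries at both ends of the conceptus score. Means were 285 ± 141 CPM for DT and 216 ± 148 CPM for PBS (SD; n = 4 each), and the log2 fold change was 0.40 ± 0.62 (SE; 95% interval -1.02 to 1.82; edgeR quasi-likelihood, Benjamini-Hochberg adjusted p = 0.782). Leaving out DT replicate 1 gave 0.72 ± 0.52, leaving out PBS replicates 1 and 2 gave -0.26 ± 0.59, and leaving out all 3 gave 0.06 ± 0.13. Among the 5 remaining libraries the gene thus ranged only from 294 to 385 CPM.

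Both hormones lie in the prolactin gene cluster on chromosome 13, Prl3c1 at chr13:27196659-27203749 and Prl8a2 at chr13:27345673-27354216 (GRCm38, plus strand). Per length, the ratio of Prl8a2 to Prl3c1 was 9.12, 14.4, 10.6 and 16.3 in DT replicates 1, 3, 4 and 5, and 9.74 and 17.3 in PBS replicates 4 and 6. It was 80.3 and 91.8 in PBS replicates 1 and 2. This ratio does not depend on how libraries are scaled, and it put those libraries apart from the other 6, in which it varied from 9.12 to 17.3 although Prl8a2 itself ranged from 687 to 6719.9 CPM there.

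The 23 listed prolactin-family genes of trophoblast, of which 18 could be tested, were summed for comparison. They came to 426 and 1204 CPM in PBS replicates 1 and 2 and to 47.9 and 75.0 CPM in PBS replicates 4 and 6. In the DT libraries the sum was 59.5 to 126 CPM. Their median log2 fold change was -2.43, and 0 of 18 were called by edgeR's test, although 7 lower and 1 higher had an unadjusted p under 0.05. DESeq2 called 2 lower, Prl7d1 (9.55 and 35.2 CPM in PBS replicates 1 and 2, at most 0.417 CPM elsewhere) and Prl2c3 (56.2 and 217 CPM there, at most 3.21 CPM elsewhere). Prl2c5 followed the same libraries, with 12.6 and 33.2 CPM there and at most 2.16 CPM elsewhere. Without PBS replicates 1 and 2, the log2 fold changes of these genes turned from -5.59, -5.35 and -3.17 to 0.41, 0.04 and 0.21 for Prl7d1, Prl2c3 and Prl2c5. The summed trophoblast prolactins, these named genes and Prl8a2 were highest in the same 2 libraries, in which Prl3c1 was low. Not every gene of the list followed the sum. Prl8a9, the 1 higher gene, was lowest in those libraries, with 10.1 and 5.91 CPM against 20.5 to 52.7 CPM elsewhere. Prl7a2 was low in the same libraries as Prl3c1, with 1.21 and 1.86 CPM there and 0.957 CPM in DT replicate 1. It measured 2.89 to 3.72 CPM elsewhere.

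**Figure D2:**
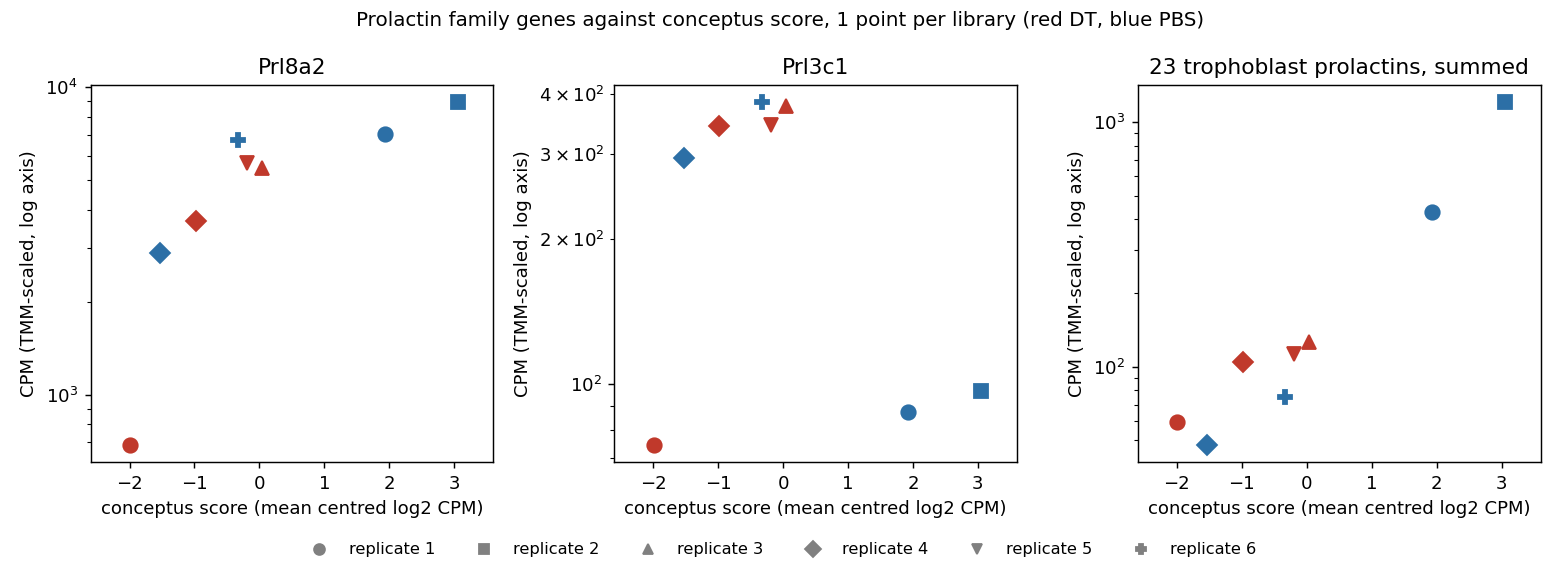
Prl8a2, Prl3c1 and the summed trophoblast prolactins in each library (CPM, log axes) against the conceptus score, DT in red and PBS in blue, with marker shapes for replicate numbers. Prl8a2 lies lowest at the lowest score (687 CPM at -1.99) and highest at the highest (8959.7 CPM at 3.05), whereas Prl3c1 is at most 96.7 CPM at both ends and at least 294 CPM between them.

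Summed conceptus markers are given beside the hormones because Prl8a2 was lowest and highest in the libraries with the lowest and highest conceptus score, while Prl3c1 was low in both. The 16 trophoblast markers summed to 32.3 to 130 CPM in the DT libraries and 47.7 to 694 CPM in the PBS libraries, the 14 yolk sac endoderm markers to 40.2 to 66.3 and 50.6 to 280 CPM, and the 7 primitive erythroid markers to 2.94 to 8.63 and 1.82 to 322 CPM. Of these 37 genes 32 were tested, 15 were lower and 0 higher in the DT libraries at an unadjusted p under 0.05, and 0 were called by edgeR's test. Gcm1, Ctsq, Rhox9, Foxa1, Hbb-y, Hbb-bh1 and Hba-x were at 0 in some libraries, and none was at 0 in all 8. Prl3d1 and Prl2c2 are also on the list of trophoblast prolactins, and Eomes is on the trophoblast and the uterine NK cell lists. The 14 uterine NK cell markers, cells that lie in the decidua, summed to 301 to 933 CPM in the DT libraries, 461 and 832 CPM in PBS replicates 4 and 6, and 2005 and 2372 CPM in PBS replicates 1 and 2. No uterine NK marker was at 0 in any library. Of these 14, 2 were higher and 4 lower in the DT libraries at an unadjusted p under 0.05, and 0 were called by edgeR's test. The part of uterine NK cells or of the conceptus in the hormone levels was not tested. The covariate fit gives only the group difference with the conceptus score in the model, for Prl3c1 0.23 ± 0.61. There the score enters as a straight line, which cannot follow a gene that is low at both ends, as Prl3c1 was.

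Prlr, the receptor through which prolactins and placental lactogens signal, was the least abundant member per length. It measured 65.3, 41.9, 51.6 and 30.2 CPM in DT replicates 1, 3, 4 and 5, and 36.2, 44.5, 58.6 and 65.0 CPM in PBS replicates 1, 2, 4 and 6. Unlike the hormones it was highest in DT replicate 1, and the groups overlapped throughout. Means were 47.2 ± 14.9 and 51.1 ± 13.1 CPM (SD; n = 4 each), and the log2 fold change was -0.11 ± 0.26 (SE; 95% interval -0.71 to 0.48; edgeR quasi-likelihood, Benjamini-Hochberg adjusted p = 0.857). Leaving out DT replicate 1 gave -0.31 ± 0.25, and leaving out PBS replicates 1 and 2 gave -0.39 ± 0.29. Without all 3 it was -0.59 ± 0.21 (edgeR quasi-likelihood, Benjamini-Hochberg adjusted p = 0.633), and with the conceptus score as a covariate -0.42 ± 0.22.

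The other genes of the prolactin axis were the kinase Jak2, the transcription factors Stat5a and Stat5b, their feedback inhibitors and a pair of steroid enzymes. With the 3 members the list held 12 genes, all tested, of which 0 were called by edgeR, DESeq2 or limma voom. At an unadjusted p under 0.05 edgeR's test had 2 higher and 1 lower, with a median log2 fold change of -0.07. Socs1, a JAK inhibitor, measured 4.65 to 6.21 CPM in the DT libraries and 3.40 to 4.54 CPM in the PBS libraries without overlap (log2 fold change 0.47 ± 0.14). Cish, a STAT5-induced inhibitor, measured 13.9 to 16.2 and 9.36 to 14.5 CPM (0.40 ± 0.15). Hsd17b7, an enzyme of estradiol and cholesterol synthesis first described as a prolactin receptor-associated protein, measured 56.8 and 63.5 CPM in PBS replicates 1 and 2 and 19.1 to 30.3 CPM in the other 6 libraries (-0.98 ± 0.33). Without these PBS libraries the differences were -0.25 ± 0.18 for Hsd17b7 and 0.16 ± 0.10 for Cish, and 0.46 ± 0.18 for Socs1. The smallest adjusted p of the list was 0.462 (edgeR quasi-likelihood, Benjamini-Hochberg). Jak2 lay between 62.1 and 83.9 CPM, Stat5a between 11.8 and 14.9 CPM and Stat5b between 23.4 and 36.6 CPM over the 8 libraries.

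Bmp2, the ligand whose loss from the uterus blocks decidualization, stood at 506, 685, 816 and 592 CPM in DT replicates 1, 3, 4 and 5, and at 592, 524, 846 and 838 CPM in PBS replicates 1, 2, 4 and 6. PBS replicates 4 and 6 and DT replicate 4 were high, and PBS replicate 2 and DT replicate 1 low, so that neither group stood above the other. Means were 649.6 ± 133 and 699.8 ± 166 CPM (SD; n = 4 each), and the log2 fold change was -0.11 ± 0.21 (SE; 95% interval -0.58 to 0.36; edgeR quasi-likelihood, Benjamini-Hochberg adjusted p = 0.823). Leaving out DT replicate 1 gave -0.002 ± 0.20, leaving out PBS replicates 1 and 2 gave -0.38 ± 0.19, and the conceptus covariate gave -0.26 ± 0.19.

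Bmp8a, a BMP-family ligand made in the decidua, followed Prl8a2 and not Bmp2. It measured 18.2, 54.0, 42.5 and 52.2 CPM in DT replicates 1, 3, 4 and 5, and 61.7, 57.3, 42.4 and 69.4 CPM in PBS replicates 1, 2, 4 and 6. DT replicate 1 lay far below every other library, and the remaining DT libraries lay inside the PBS range. Means were 41.7 ± 16.5 and 57.7 ± 11.4 CPM (SD; n = 4 each), and the log2 fold change was -0.47 ± 0.32 (SE; 95% interval -1.20 to 0.26; edgeR quasi-likelihood, Benjamini-Hochberg adjusted p = 0.591). Without DT replicate 1 it was -0.22 ± 0.17, and without that library and PBS replicates 1 and 2 it was -0.17 ± 0.22. Of the 75-base windows of its exons, 6.62% also occur in Bmp8b or the model Gm17244, but Bmp8b itself measured only 2.996 to 4.84 CPM. The ratio of Bmp2 to Bmp8a per length was 18.9 in DT replicate 1, 12.998 in DT replicate 4 and 13.5 in PBS replicate 4, and 6.18 to 8.58 in the other 5 libraries.

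The BMP list of 35 ligands, receptors, Smads, Id target genes and secreted antagonists was tested whole, and 0 were called by edgeR or limma voom. DESeq2 called 1 higher, Bmp7. At an unadjusted p under 0.05 edgeR's test had 4 higher and 1 lower, with a median log2 fold change of -0.02. Bmp7, a ligand of another BMP subgroup, measured 7.67 to 8.07 CPM in the DT libraries and 5.05 to 6.66 CPM in the PBS libraries, with no overlap. Its log2 fold change was 0.44 ± 0.10 (SE), with an adjusted p of 0.240 by edgeR's quasi-likelihood test and 0.00608 by DESeq2, both Benjamini-Hochberg. Smad1, a signal transducer of BMP receptors, measured 58.8 to 65.2 and 52.9 to 58.7 CPM (0.16 ± 0.06), and Id3, a target gene of that signal, 76.3 to 98.4 and 54.1 to 87.8 CPM (0.35 ± 0.15). The edgeR test called neither after adjustment. Without PBS replicates 1 and 2 the difference was 0.16 ± 0.14 for Id3, 0.12 ± 0.08 for Smad1 and 0.41 ± 0.13 for Bmp7.

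Wnt4, the WNT ligand downstream of BMP2 in decidual stroma, measured 126, 214, 196 and 245 CPM in DT replicates 1, 3, 4 and 5, and 162, 139, 197 and 166 CPM in PBS replicates 1, 2, 4 and 6. DT replicate 1 was the lowest library, while DT replicates 3 and 5 lay above all PBS libraries and DT replicate 4 just below the highest. Means were 195 ± 50.1 and 166 ± 24.1 CPM (SD; n = 4 each), and the log2 fold change was 0.23 ± 0.20 (SE; 95% interval -0.22 to 0.69; edgeR quasi-likelihood, Benjamini-Hochberg adjusted p = 0.636). Without DT replicate 1 it was 0.40 ± 0.13 (edgeR quasi-likelihood, Benjamini-Hochberg adjusted p = 0.578), without DT replicate 5 it was 0.10 ± 0.20, and without PBS replicates 1 and 2 it was 0.10 ± 0.25.

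The WNT list held 41 ligands, receptors, β-catenin partners and inhibitors, all tested, and 0 were called by edgeR, DESeq2 or limma voom. At an unadjusted p under 0.05 edgeR's test had 7 higher and 1 lower, beside 4.72% and 3.98% of all genes. The median log2 fold change was 0.23, beside 0.01 for all genes. The median is a description of these libraries, since members of a list can vary together. Tcf7l2, a transcription factor that binds β-catenin, measured 16.9 to 22.6 CPM in the DT libraries and 11.8 to 16.4 CPM in the PBS libraries (0.39 ± 0.13). The ligand genes Wnt2 and Wnt9a measured 2.60 to 4.79 against 2.28 to 2.93 CPM (0.57 ± 0.19) and 3.45 to 4.14 against 1.93 to 3.20 CPM (0.50 ± 0.19). With PBS replicates 1 and 2 left out, the differences were 0.25 ± 0.13 for Tcf7l2, 0.47 ± 0.26 for Wnt2 and 0.22 ± 0.13 for Wnt9a. The smallest adjusted p of the list was 0.509 (edgeR quasi-likelihood, Benjamini-Hochberg).

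Hoxa10 and Hoxa11, homeobox genes that mark the uterus along the reproductive tract and are needed for the decidual response, were the steadiest members. Hoxa10 measured 377, 407, 440 and 417 CPM in DT replicates 1, 3, 4 and 5, and 387, 350 and 420 CPM in PBS replicates 1, 2 and 4, with 386 CPM in PBS replicate 6. Its highest library was 1.26 times its lowest, and the groups interleaved. Means were 410.4 ± 26.0 and 386 ± 28.4 CPM (SD; n = 4 each), and the log2 fold change was 0.09 ± 0.08 (SE; 95% interval -0.10 to 0.28; edgeR quasi-likelihood, Benjamini-Hochberg adjusted p = 0.662). As a fold this interval runs from 0.930 to 1.22, the narrowest of the 10 genes. Without PBS replicates 1 and 2 the difference was 0.02 ± 0.10.

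Hoxa11 measured 235, 288, 284 and 298 CPM in DT replicates 1, 3, 4 and 5, and 284, 259, 256 and 262 CPM in PBS replicates 1, 2, 4 and 6. DT replicate 1 lay below the PBS range, and DT replicates 3, 4 and 5 all lay above it. The nearest was DT replicate 4, at 284.2 CPM against 283.8 CPM in PBS replicate 1. Means were 276 ± 28.0 and 265 ± 12.8 CPM (SD; n = 4 each), and the log2 fold change was 0.06 ± 0.09 (SE; 95% interval -0.15 to 0.27; edgeR quasi-likelihood, Benjamini-Hochberg adjusted p = 0.777). Without DT replicate 1 the log2 fold change was 0.13 ± 0.06. The gene shares 32.0% of its 75-base exon windows with Hoxa11os, transcribed from the opposite strand and measured at 127 to 150 CPM. The strand setting of the counting is not given in the sources used here, so reads of the pair cannot be told apart. Hoxa10 and Hoxa11 are neighbours on chromosome 6, at chr6:52231197-52240854 and chr6:52242106-52245810 (GRCm38, minus strand). Their ratio per length stayed between 0.948 and 1.15 over the 8 libraries, a range of 1.21-fold.

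The list of posterior Hox genes and their partners held 20 genes, of which 19 were tested and Hoxd13 was filtered out. Of the 19, 0 were called by edgeR, DESeq2 or limma voom. In edgeR's test 4 higher and 0 lower had an unadjusted p under 0.05, beside 4.72% and 3.98% of all genes. The median log2 fold change was 0.23, with 15 of 19 above 0. Hoxc11 measured 1.35 to 3.20 CPM in the DT libraries and 0.817 to 1.15 CPM in the PBS libraries (1.02 ± 0.29), its highest value being DT replicate 1. Hoxd8 measured 37.3 to 43.0 and 31.3 to 36.3 CPM (0.23 ± 0.07), and Hoxd10 96.4 to 118 and 76.2 to 101 CPM (0.32 ± 0.11). Hoxc11 was 0.67 ± 0.17 without DT replicate 1. Hoxd8 was 0.15 ± 0.08 and Hoxd10 0.19 ± 0.11 without PBS replicates 1 and 2. The smallest adjusted p of the list was 0.419 (edgeR quasi-likelihood, Benjamini-Hochberg).

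Cebpb encodes C/EBPβ, a progesterone-responsive factor needed for stromal proliferation and differentiation. It measured 73.5, 97.9, 111 and 106 CPM in DT replicates 1, 3, 4 and 5, and 99.9, 86.7, 95.4 and 102 CPM in PBS replicates 1, 2, 4 and 6. Apart from DT replicate 1 the libraries lay within 86.7 to 111 CPM. Means were 97.03 ± 16.6 and 96.0 ± 6.81 CPM (SD; n = 4 each), and the log2 fold change was 0.02 ± 0.13 (SE; 95% interval -0.28 to 0.31; edgeR quasi-likelihood, Benjamini-Hochberg adjusted p = 0.965). Without DT replicate 1 the log2 fold change was 0.13 ± 0.08. Of its exon windows 16.7% also occur in Tmem189, on the opposite strand, which measured 46.1 to 144 CPM and was lowest in DT replicate 1.

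The C/EBP list held 7 genes, all tested, with 0 called by edgeR, DESeq2 or limma voom, 1 higher and 1 lower with an unadjusted p under 0.05 in edgeR's test, and a median log2 fold change of -0.01. Cebpe, best known from granulocytes, measured 0.194 to 0.520 CPM in the DT libraries and 0.0762 to 0.189 CPM in the PBS libraries (1.40 ± 0.38). Cebpa, a differentiation factor of liver, fat and myeloid cells, measured 25.7 to 33.3 and 31.5 to 43.8 CPM (-0.36 ± 0.12), and Cebpg 54.8 to 73.4 and 66.5 to 76.9 CPM (-0.14 ± 0.10). In the fit without PBS replicates 1 and 2, Cebpa was -0.21 ± 0.14 and Cebpg -0.08 ± 0.13, and without DT replicate 1 Cebpg was -0.06 ± 0.07. The smallest adjusted p of the list was 0.383 (edgeR quasi-likelihood, Benjamini-Hochberg).

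Gja1, the gene of connexin 43, measured 1519.5, 2286, 2183 and 2470 CPM in DT replicates 1, 3, 4 and 5, and 2497, 2366, 2196 and 2380 CPM in PBS replicates 1, 2, 4 and 6. The other 7 libraries lay close together, and DT replicate 1 lay below them. Means were 2115 ± 414 and 2360 ± 124 CPM (SD; n = 4 each), and the log2 fold change was -0.16 ± 0.15 (SE; 95% interval -0.51 to 0.19; edgeR quasi-likelihood, Benjamini-Hochberg adjusted p = 0.667). Without DT replicate 1 it was -0.03 ± 0.09, and with PBS replicates 1 and 2 also left out 0.02 ± 0.10. Smooth muscle of the myometrium also expresses Gja1, and 10 smooth muscle markers summed to 4389 to 5793 CPM in the DT libraries, highest in DT replicate 1, and to 4275 to 5729 CPM in the PBS libraries.

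The gap junction list held 14 genes, of which 12 were tested (Gja3 and Gjd3 were filtered out). Of the 12, 0 were called by edgeR, DESeq2 or limma voom, 0 had an unadjusted p under 0.05 in edgeR's test, and the median log2 fold change was -0.14. Gja4, an endothelial connexin, measured 10.1 to 12.1 CPM in the DT libraries and 8.36 to 10.8 CPM in the PBS libraries (0.19 ± 0.11, and 0.09 ± 0.11 without PBS replicates 1 and 2).

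**Figure D3:**
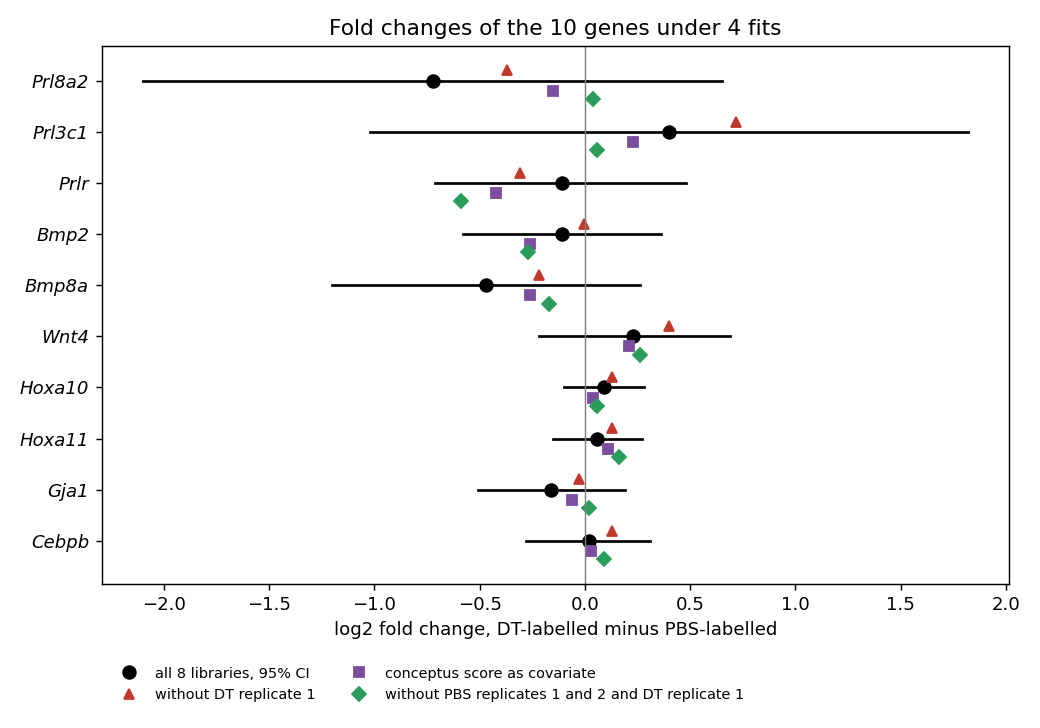
Log2 fold change (DT minus PBS) of the 10 genes from all 8 libraries (black, with 95% intervals), without DT replicate 1 (red), with the conceptus score as a covariate (purple), and without PBS replicates 1 and 2 and DT replicate 1 (green). Every interval crosses 0, from the narrowest of Hoxa10 (-0.10 to 0.28) to the widest of Prl3c1 (-1.02 to 1.82), and Prl8a2 moves from -0.72 to 0.04 across the fits.

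A wider list of 60 regulators and products of decidualization, 7 of which are members, was tested whole. Of the 60, 0 were called by edgeR, DESeq2 or limma voom, 1 higher and 4 lower had an unadjusted p under 0.05 in edgeR's test, and the median log2 fold change was -0.10. Igfbp4, a binding protein of insulin-like growth factors, measured 380.0 to 766 CPM in the DT libraries and 223 to 434 CPM in the PBS libraries (0.77 ± 0.28), highest in DT replicate 1. Htra3, a secreted serine protease of decidual cells, measured 1086 and 1318 CPM in PBS replicates 1 and 2 and 106 to 369 CPM in the other 6 libraries (-1.97 ± 0.72). Lif, the cytokine needed for implantation, measured 1.07 to 1.47 CPM in the DT libraries and 1.16 to 3.99 CPM in the PBS libraries (-0.92 ± 0.35). Leaving out PBS replicates 1 and 2 gave -0.38 ± 0.59 for Htra3, -0.21 ± 0.22 for Lif and 0.48 ± 0.32 for Igfbp4. With DT replicate 1 also left out, Igfbp4 was 0.24 ± 0.20. The smallest adjusted p of the list was 0.543 (edgeR quasi-likelihood, Benjamini-Hochberg). The 9 stroma markers, genes of the cells that decidualize, summed to 11109 to 16170 CPM in the DT libraries, highest in DT replicate 1, and to 10681 to 13878 CPM in the PBS libraries.

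Levels were compared between genes as CPM per kilobase of exon, averaged over the 8 libraries. Prl8a2 stood at 5478 CPM per kilobase and above the next gene in 8 of 8 libraries. Prl3c1 (269), Gja1 (218) and Bmp2 (189.8 CPM per kilobase) followed, and their order was not settled, since Prl3c1 exceeded Gja1, and Gja1 exceeded Bmp2, in 5 of 8 libraries. Hoxa10 (122) and Hoxa11 (118 CPM per kilobase) did not differ beyond their spread, with Hoxa10 above in 4 of 8. Cebpb (64.2), Wnt4 (43.1), Bmp8a (20.7) and Prlr (3.20 CPM per kilobase) came next, each above the next in all 8 libraries. Exon lengths were taken over all annotated transcripts, which places genes with long alternative exons, such as Prlr with 15339 bases and Gja1 with 10257, low on this scale.

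The spread between libraries of a group separated the hormones from the transcription factors. The pooled within-group SD of log2 CPM was 1.13 for Prl8a2 and 1.11 for Prl3c1, larger than for 99.3% and 99.2% of the 6165 tested genes whose mean log2 CPM reached 5 or more. Their median SD was 0.14. Bmp8a (0.56) and Prlr (0.43) varied more than 95.9% and 92.1% of those genes. Wnt4, Bmp2, Gja1 and Cebpb had SDs of 0.33, 0.32, 0.23 and 0.20. Hoxa11 (0.12) and Hoxa10 (0.10) lay below the median of that set. Within the DT group most of the spread of the hormones came from 1 library, since without DT replicate 1 the SD of the other 3 was 0.35 for Prl8a2 in place of 1.44, and 0.08 for Prl3c1 in place of 1.13. In the PBS group the SDs were 0.71 and 1.09.

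**Figure D4:**
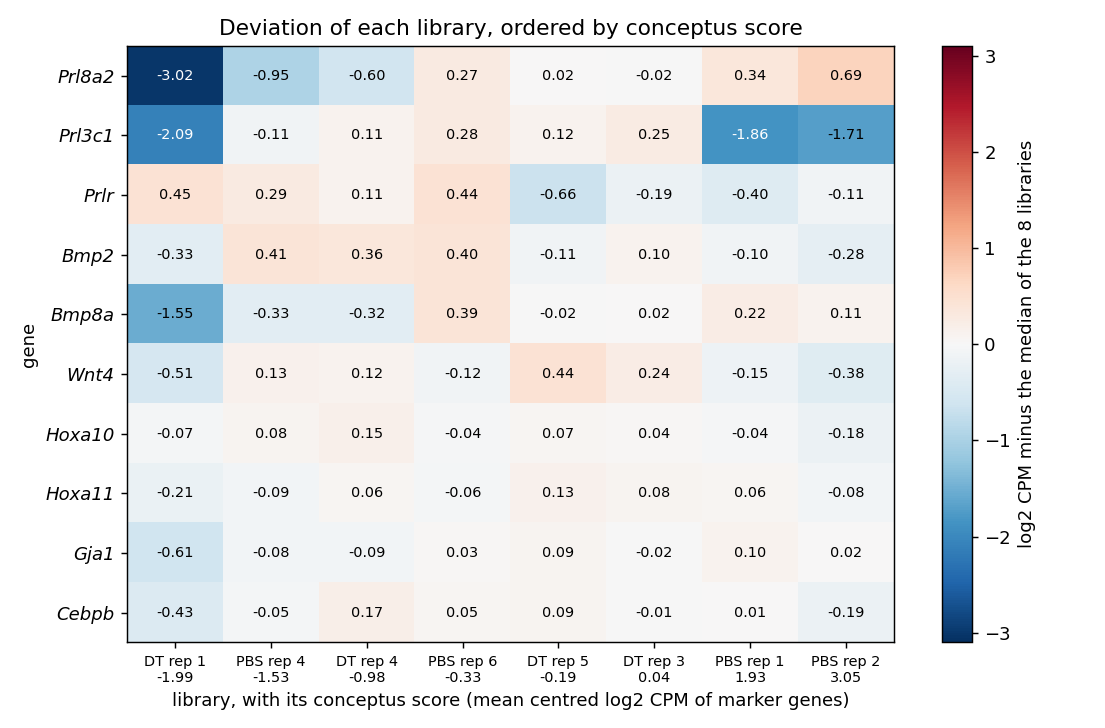
Deviation of log2 CPM of each gene (down the side) from its 8-library median in each library (across, ordered by conceptus score), blue for below and red for above. DT replicate 1 is below the median for 9 genes, by -3.02 for Prl8a2 and -1.55 for Bmp8a, and Prl3c1 is also low in PBS replicates 1 and 2 (-1.86 and -1.71), while Hoxa10 stays within -0.18 to 0.15.

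DT replicate 1 was the lowest library for 8 of the 10 genes, all but Prlr and Hoxa10. It was also the lowest for 48.7% of the 6165 genes at this level of expression with TMM scaling. The count depended on the scaling, with 7 of 10 (38.6% of the 6165) by upper-quartile factors and 3 of 10 (20.7%) by library totals alone. The 3 that were lowest under each scaling were Prl8a2, Bmp8a and Gja1.

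Over the 8 libraries, 3 of the 45 pairs of members had a Pearson r of log2 CPM of at least 0.9, and 10 pairs had a negative r. Those 3 pairs joined Prl8a2, Bmp8a and Gja1 (r = 0.97 for Prl8a2 with Bmp8a, and 0.96 for each with Gja1), and without DT replicate 1 they had r = 0.85, 0.77 and 0.75 over 7 libraries. Prl3c1 was nearest to Wnt4 (r = 0.82, and 0.73 without that library). Between the 2 hormones r was 0.29, and -0.57 without DT replicate 1. These values describe libraries that share depth, scaling and tissue makeup, and carry no test.

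Among 13759 genes whose mean log2 CPM was 0 or more, the genes whose log2 CPM was most like that of Prl8a2 over the 8 libraries were Tmem251 (r = 0.999), Aloxe3, Brpf1 and Ccdc155 (each 0.997) and AW822252 (0.996). Ccdc155 ranged from 2.23 to 58.8 CPM and Aloxe3 from 5.66 to 54.5 CPM. Nearest to Bmp2 were Smyd4 (0.973), Adora2b and Tubgcp3 (each 0.951), Unc5c (0.938) and Ralgps2 (0.929). Nearest to Hoxa10 were Oxld1 (0.989), Lima1 (0.981), Iah1 and Tbpl1 (each 0.980) and Tmem51 (0.978). With 8 libraries and this many genes, high values arise among the best matches in any case, and they are given as a description only.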

How the data were processed

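Bulk RNA-seq of 8 uterus libraries was analysed. The files the authors deposited hold raw counts of reads per Ensembl ID as whole numbers, once for each library and once for the series, and these copies differed in 0 cells. Per the submitters' processing notes, the tools were Trimmomatic, HISAT2, featureCounts, SAMtools and DESeq2, and the genome was GRCm38. Which version of each was run, for which step, with which gene annotation and strand option, and how multi-mapping reads were counted is not given in the sources used here. Per the labels' protocols, RNA integrity numbers were 8 to 10 and reads were paired, each about 75 bases long. The protocol also calls the injections daily, and the listed days are given here.

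Of 49585 IDs, 49326 matched GENCODE mouse M21, and the other 259 held 0.076% of counts and stayed in the tests. In R 4.3.3 with edgeR 4.0.16, filterByExpr (minimum count 10, minimum total 15) kept 22693 genes, libraries were scaled by TMM, and DT and PBS were compared by the robust quasi-likelihood test (two-sided, no term but treatment) and Benjamini-Hochberg adjustment over all genes tested. Calls are at an adjusted p under 0.05. The biological coefficient of variation was 25% (common dispersion 0.0626), so that differences between libraries and not counting error limited the precision of the members. CPM uses TMM-scaled totals. DESeq2 1.42.0 and limma 3.58.1 (voom) were alternatives, beside other scalings and filters, each library left out, a replicate block and the conceptus score as a covariate. The fits were also run on simulated counts with known fold changes. Those counts lacked the shared differences between libraries seen here, so the runs do not show how the fits handle them. Other steps used Python 3.11.15.

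The members and all lists were chosen with earlier results of these data known, and no list was given a test of its own. The named genes are the 10 members, the 3 genes of each pathway list with the smallest unadjusted p that are no members, and the 5 genes most like Prl8a2, Bmp2 and Hoxa10. Other genes are the label check and neighbours that share sequence. Jak2, Stat5a, Stat5b, Prl8a9, Prl7a2, Prl6a1 and Des were named after their values were seen. A further 2 genes of the gap junction list that this rule names are not reported here, and the list's counts include them.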

Additional observations from a re-analysis of the deposited data

Results flagged for a closer look

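In groups of 4 libraries, the highest or lowest library was compared with the rest by Dixon's ratio of its gap to the group's whole range and its 95% critical value. Among 64 groups tested (the 10 members and the 22 other pathway genes named by smallest p, in DT and in PBS), 2 had a library past it. Chance gives about 1 in 20. Prl3c1 in DT replicate 1 was 74.6 CPM, against 343 to 377 CPM in the other DT libraries (ratio 0.885). It was the only such library among the 20 groups of the members, and the same library was also the lowest for 7 other members. Wnt2 in PBS replicate 4 was 2.93 CPM, against 2.28 to 2.31 CPM in the other PBS libraries (ratio 0.960).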

How the results depend on the processing

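Across 18 alternatives, 16 planned and 2 chosen after seeing the data (without PBS replicates 1 and 2, and without these and DT replicate 1), 0 of 180 values of the 10 members were called, 3 had an unadjusted p under 0.05, and the smallest adjusted p was 0.330 (edgeR quasi-likelihood, Benjamini-Hochberg). The 3 were Wnt4 without DT replicate 1, Hoxa11 with library totals, and Prlr without PBS replicates 1 and 2 and DT replicate 1. Over all genes, those fits had 938 higher and 693 lower, 1229 and 492, and 1000 and 647 at the same threshold. The log2 fold change of the members kept its sign in 165 of the 180. For all genes, the count called higher (73) was 275 by DESeq2, 0 to 115 with 1 library left out (0 without DT replicate 3, 4 or 5 or PBS replicate 1, 2 or 6, 43 without PBS replicate 4, 115 without DT replicate 1), 125 with the conceptus score and 0 without PBS replicates 1 and 2. In these fits with 0 calls edgeR's test had 687 to 1211 genes higher at an unadjusted p under 0.05. The count called lower (1) was 2 with library totals, 2 with upper-quartile factors, 58 by DESeq2, 0 to 5 with 1 library left out and 4 with the conceptus score. Signs turned for Prlr with library totals (0.01), without DT replicate 5 (0.05) and without PBS replicate 6 (0.03), within -0.31 to 0.05 over single libraries left out. For Cebpb, within -0.06 to 0.13, they turned without DT replicate 4 (-0.06), DT replicate 5 (-0.03) or PBS replicate 2 (-0.03). Without PBS replicates 1 and 2, values were -0.26 for Prl3c1, -0.03 for Cebpb, 0.41 for Prl7d1, 0.04 for Prl2c3 and 0.21 for Prl2c5. With DT replicate 1 left out too, they were 0.04 for Prl8a2, 0.02 for Gja1, 0.01 for Cebpg, 0.76 for Prl7d1, 0.42 for Prl2c3 and 0.49 for Prl2c5. The causes were not tested. A further fit took the replicate number as a block, although only numbers 1 and 4 occur in both groups. Deviations of same-numbered libraries from their group means correlated at -0.469 for number 1 and 0.313 for number 4. These correlations, of opposite sign, neither show nor exclude a pairing by number. With the block edgeR called 0 genes higher and 0 lower (205 and 75 at an unadjusted p under 0.05). Values were then -1.51 for Prl8a2, -0.88 for Bmp8a, -0.36 for Gja1, -0.002 for Prl3c1, 0.33 for Prlr, -0.18 for Wnt4, -0.06 for Hoxa11 and -0.11 for Cebpb. The spread between 4 libraries, not depth, set the 95% intervals, which as folds ran from 0.234 to 1.57 for Prl8a2 and from 0.494 to 3.53 for Prl3c1.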

Other observations

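Summed T cell and macrophage markers separated the groups in which the decidual genes overlapped, while summed uterine NK cell markers overlapped. The 11 T cell markers summed to 29.8 to 32.7 CPM in the DT libraries and 19.9 to 21.3 CPM in the PBS libraries, and 5 of the 11 were called higher by edgeR's test. Cd3e, a chain of the T cell receptor complex, measured 1.14 to 1.61 CPM in the DT libraries and 0.165 to 0.397 CPM in the PBS libraries (edgeR quasi-likelihood, Benjamini-Hochberg adjusted p = 0.0314). The 10 macrophage markers summed to 509 to 579 and 396 to 469 CPM, with 2 of 10 called higher. These calls, that of Cd3e included, were lost with single libraries, since edgeR's test called 0 genes higher when any of DT replicates 3, 4 and 5 or PBS replicates 1, 2 and 6 was left out (737 to 1211 at an unadjusted p under 0.05). In these summed levels DT replicate 1, lowest for 8 of the decidualization genes, lay with the other DT libraries, at 30.4 CPM for T cell and 579 CPM for macrophage markers.

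The 9 endothelial markers summed to 937 to 1260.1 CPM in the DT libraries and 929 to 1861 CPM in the PBS libraries, highest in PBS replicates 1 and 2 (1606 and 1861 CPM). The 10 markers of the embryo proper summed to 1.37 to 12.8 and 3.45 to 38.03 CPM, lowest in DT replicate 1, and 0 of the 7 tested were called by edgeR or had an unadjusted p under 0.05.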
